A study of Mus musculus with 6 samples.

Results

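The suppressors of cytokine signalling (SOCS) and the Pim kinases are feedback genes of JAK-STAT signalling, and the 10 members described here are Cish, Socs1 to Socs7, Pim1 and Pim2. They were taken by gene symbol, with no measured value in the rule, out of 23183 symbols in the count files. The set was chosen with earlier results of these data known. All 10 were present and all 10 passed the filter on low counts, which kept 12226 genes. RNA was sequenced from mouse T helper 9 (Th9) cultures, which are CD4 T cells pushed towards IL-9 production, on day 3. The SPC group (3 libraries) received sphingosylphosphorylcholine (d18:1), a lysosphingolipid, at 30 µM, and the control group (3 libraries) had none. Both groups started from naive CD4+ T cells of wild-type C57BL/6N mouse spleen. Both were stimulated with plate-bound anti-CD3e and soluble anti-CD28 at 1 µg/ml each, and held under anti-IFN-γ at 10 µg/ml, TGF-β1 at 2 ng/ml and IL-4 at 10 ng/ml. The sources used here give neither the age of the mice nor whether spleens were pooled.

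When a cytokine binds its receptor, JAK kinases phosphorylate the receptor and STAT factors, and the STATs enter the nucleus and switch on genes. Among these genes are those of the SOCS proteins, which bind activated receptors or JAKs through an SH2 domain and, through a C-terminal SOCS box, recruit an elongin and cullin ubiquitin ligase, so that the signal is damped. Pim kinases are also induced by STATs, and since they have little need of further activation their amount largely sets their activity, which favours survival and growth. In T helper cells Socs1 and Socs3 restrain interferon, IL-4 and IL-6 type signals, and Cish and Socs2 are classical products of IL-2 signalling through STAT5.

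The libraries held 22715292 to 33049997 counts with SPC and 22002050 to 30292992 in control. CD4 T cell identity genes (10 genes, Cd3e, Cd4 and Lck among them) summed to 2404 to 2558 CPM with SPC and 2310 to 2367 CPM in control, where CPM are read counts brought to a common library size with TMM factors. Of markers of other cells, the 8 B cell genes summed to 4.17 to 5.22 CPM with SPC and 3.63 to 3.91 CPM in control, and the 9 macrophage and monocyte genes to 1.72 to 2.30 CPM with SPC and 1.95 to 2.27 CPM in control. Ms4a1 and, of the macrophage genes, Fcgr1, C1qa, C1qb and C1qc had no count in any library. The dendritic cell list summed to 58.5 to 77.3 CPM with SPC and 59.1 to 70.8 CPM in control, of which Batf3 made up 53.6 to 71.0 CPM with SPC and 55.6 to 67.1 CPM in control, while Clec9a and Cd209a had no count. CD8 T cell and NK cell genes summed to 3.37 to 4.43 CPM with SPC and 4.38 to 4.46 CPM in control. Neutrophil genes summed to 1.30 to 1.55 CPM with SPC and 1.36 to 2.70 CPM in control, and erythroid genes to at most 0.365 CPM in SPC libraries and 0.318 CPM in control libraries.

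Without regard to library number, no difference in any of the 10 members passed the test, while Socs1 came closest and was lower with SPC. Compared within library numbers, Socs1 and Socs3 fell (log2 fold change -0.38 and -0.60) and Pim1 and Pim2 rose (0.28 and 0.31).

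With group as the single term, none of the 10 members was called at an adjusted p under 0.05 (edgeR quasi-likelihood F test with Benjamini-Hochberg adjustment over all 12226 genes), where 0.483% of all tested genes were called (0.327% higher and 0.155% lower). Of the 10, 1 member had an unadjusted p under 0.05 (10.2% of all tested genes). With the library number as a block, which compares each SPC library with the control library of the same number, 4 of 10 were called against 7.08% of all tested genes. Of the members 2 rose (4.02% of all tested genes) and 2 fell (3.07%). The groups did not overlap for 1 member, Socs1, which was lower with SPC, against 16.5% of all tested genes (8.67% higher and 7.8% lower). SPC was above control in all 3 same-numbered pairs for 4 members (21.8% of all tested genes) and below it for 2 members (22%), together 6 against 43.8%. The median log2 fold change, SPC over control, was 0.045 over the 10 members and 0.002 over all tested genes. In these bulk libraries fewer cells of a type and less RNA per cell cannot be told apart.

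**Figure D1:**
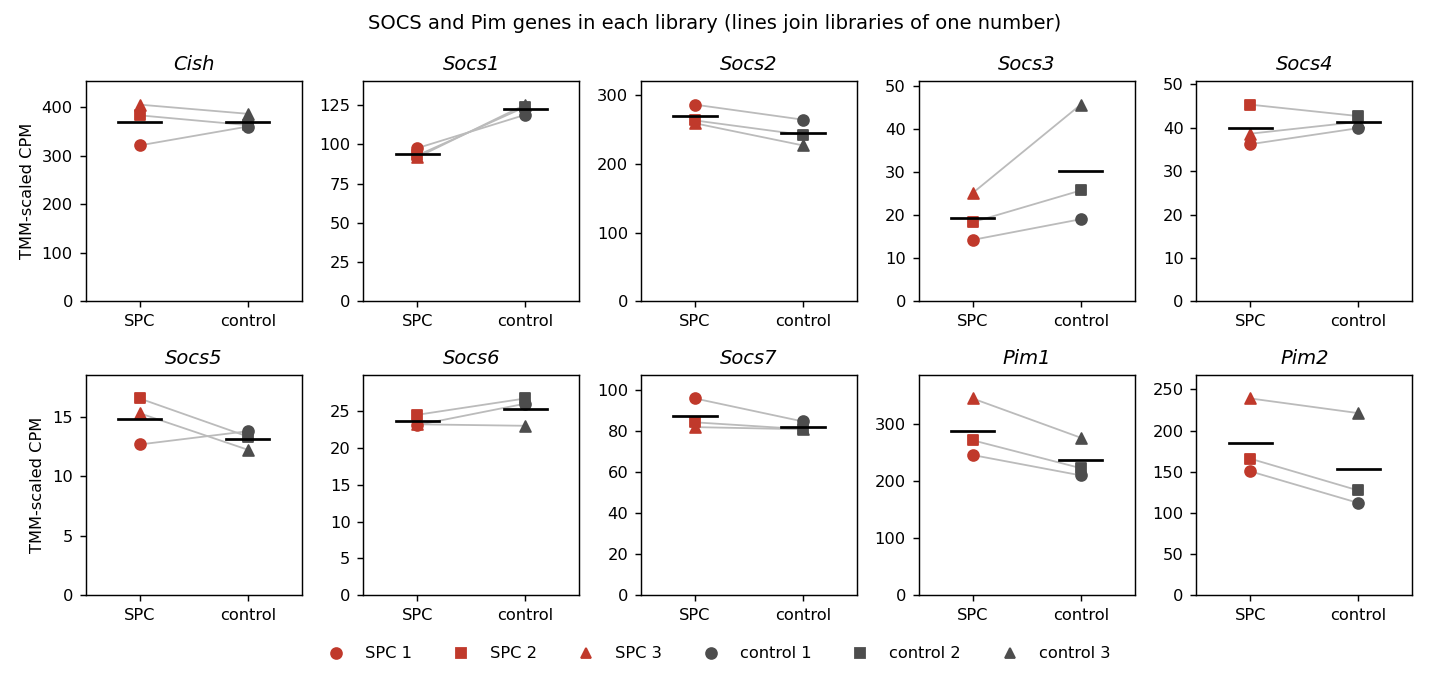
TMM-scaled CPM (y axes, from 0) of the 10 members in each of 3 SPC and 3 control libraries, with symbols for the library number, grey lines between libraries of one number and black bars at group means. Socs1 lies between 91.8 and 97.6 CPM in SPC libraries and between 119 and 125 CPM in control libraries, while Socs3, Pim1 and Pim2 differ as much between numbers as between groups.

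Levels between members were compared per kb of the longest annotated transcript, since counts rise with length. In control libraries Pim1 stood highest at 87.4 ± 13.0 CPM per kb, followed by Cish at 78.6 ± 3.07, Pim2 at 75.1 ± 28.9 and Socs2 at 57.6 ± 4.44 CPM per kb (SD, n = 3 each). Socs1 had 42.2 ± 1.17 CPM per kb, and the other SOCS genes lay well under it, with Socs3 at 11.8 ± 5.43, Socs7 at 11.7 ± 0.310, Socs4 at 6.01 ± 0.202, Socs6 at 4.19 ± 0.328 and Socs5 at 2.82 ± 0.172 CPM per kb. The libraries of Pim1, Cish and Pim2 overlapped in control, as did those of Pim2 and Socs2 and those of Socs3 and Socs7. The remaining neighbours among the members did not overlap. In SPC libraries the order was Pim1 (106 ± 19.1 CPM per kb), Pim2 (90.5 ± 23.2), Cish (78.7 ± 9.26), Socs2 (63.5 ± 3.44), Socs1 (32.4 ± 1.06), Socs7 (12.4 ± 1.07), Socs3 (7.55 ± 2.15), Socs4 (5.83 ± 0.687), Socs6 (3.92 ± 0.129) and Socs5 (3.19 ± 0.426). There Pim1 and Pim2 overlapped, as did Pim2 and Cish and also Socs3 and Socs4, and the remaining neighbours did not. Some places rest on the length used. Over the union of its annotated exons, which is more than its longest transcript, Socs2 had 28.2 ± 1.53 CPM per kb with SPC and 25.6 ± 1.97 CPM per kb in control, below Socs1 in every library. By that length Socs5 had 2.31 ± 0.308 CPM per kb with SPC and 2.04 ± 0.125 CPM per kb in control, and Socs6 had 2.08 ± 0.0685 CPM per kb with SPC and 2.23 ± 0.174 CPM per kb in control, so that their libraries overlapped in both groups. In control the mean of Socs7 (11.3 ± 0.299 CPM per kb) was then above that of Socs3 (10.45 ± 4.80), and their libraries still overlapped.

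**Figure D2:**
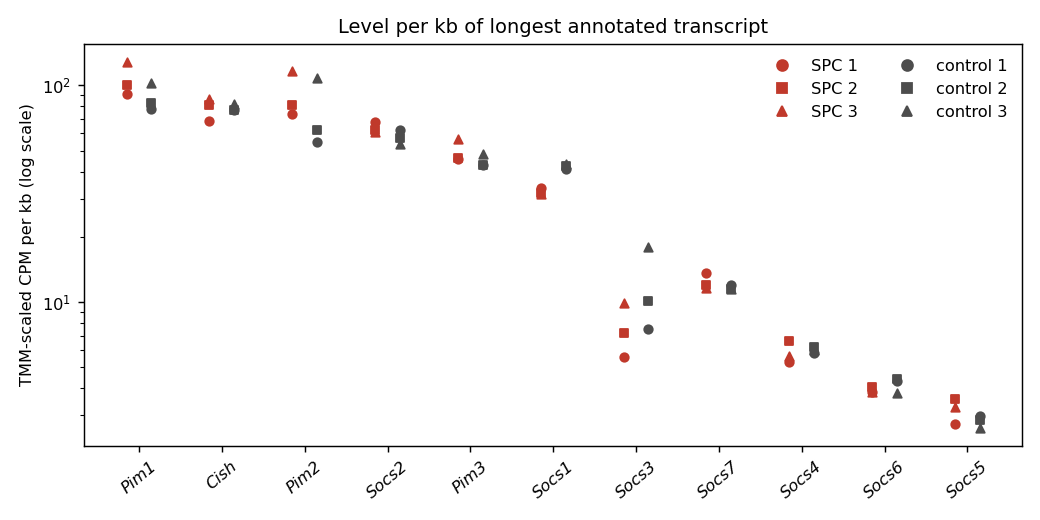
Level per kb of longest annotated transcript (y axis, TMM-scaled CPM per kb, log scale) of the 10 members and Pim3 in each library, SPC left of control for each gene, ordered by the control mean. The members span from 127.7 CPM per kb for Pim1 in SPC library 3 to 2.63 CPM per kb for Socs5 in control library 3.

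Socs1, which encodes a SOCS protein that blocks the JAK catalytic site directly, gave the smallest p of the members. It lies on chromosome 16 (10782240 to 10785536, minus strand, mm10). It had 97.6, 93.0 and 91.8 CPM in SPC libraries 1 to 3, against 119, 124 and 125 CPM in control libraries 1 to 3. All 3 SPC libraries were below all 3 control libraries, and the spread within each group was small (94.1 ± 3.09 CPM with SPC and 122.8 ± 3.39 CPM in control; SD, n = 3 each). The log2 fold change was -0.38 ± 0.066 (SE; 95% interval -0.53 to -0.23), with an adjusted p of 0.0514 by group alone and 0.00226 with the block. It was called by group alone in the DESeq2 Wald test (adjusted p = 0.00057), with no filter on low counts (0.0378) and without SPC library 1 (0.0392). It was also called in all 7 blocked fits, of which 3 left out both libraries of a number and so rest on few libraries. Over the settings that left out libraries by group alone its adjusted p ran between 0.0392 and 0.9996, and its log2 fold change between -0.43 and -0.35.

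The bases before the annotated start of Socs1 are shown because Socs1 was the member nearest to a call without the block. They are from RefSeq (GRCm38.p6, the assembly of mm10), chr16:10785537-10785786, minus strand, with capitals marking the motif searched as GAAA, any 2 bases and GAAA, a repeat recognised by interferon regulatory factors.
Socs1: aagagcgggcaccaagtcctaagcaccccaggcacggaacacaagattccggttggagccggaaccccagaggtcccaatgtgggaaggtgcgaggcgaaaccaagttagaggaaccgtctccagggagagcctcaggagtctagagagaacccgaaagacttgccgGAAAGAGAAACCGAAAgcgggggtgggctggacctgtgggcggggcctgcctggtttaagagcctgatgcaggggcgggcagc
The capitals hold 2 overlapping matches, GAAAGAGAAA from base 83 to 74 and GAAACCGAAA from base 77 to 68 before the start. Searched on both strands, the motif occurred in 2.53% of the 11851 windows of tested genes of the same 250 bases, and at least 2 matches in 0.169%. The STAT motifs, TTC and GAA with 3 bases (TTCNNNGAA) or 4 bases between them, which read the same on both strands, had no match in this window.

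Socs3, which inhibits signals through the shared receptor chain gp130, lies on chromosome 11 (117966079 to 117970047, minus strand). It had 14.3, 18.4 and 25.2 CPM in SPC libraries 1 to 3, against 19.1, 25.8 and 45.7 CPM in control libraries 1 to 3. Each SPC library was below the control library of its number, by a factor of 0.748, 0.713 and 0.550 (SPC over control). The groups overlapped because SPC library 3 was above control library 1. The log2 fold change was -0.65 ± 0.31 by group alone (95% interval -1.35 to 0.060, adjusted p = 0.544) and -0.60 ± 0.093 with the block (95% interval -0.80 to -0.39, adjusted p = 0.00328). Control library 3 weighed most on the size: without it the group-only log2 fold change was -0.22, and without control library 1 it was -0.89. With the block and without both libraries numbered 3 it was -0.45 (adjusted p = 0.0154), in a fit of few libraries.

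A stretch of the RefSeq promoter window of Socs3 that lies in no annotated exon is shown because it was the one searched window of a member with a STAT motif. It is chr11:117969452-117969616, minus strand, and lies upstream of the start of the coding transcript in GENCODE. It is still within the annotated span of the gene, 117966079 to 117970047. The RefSeq bases that follow the window were not found in a GENCODE transcript of Socs3. Capitals mark TTCNNNGAA.
Socs3: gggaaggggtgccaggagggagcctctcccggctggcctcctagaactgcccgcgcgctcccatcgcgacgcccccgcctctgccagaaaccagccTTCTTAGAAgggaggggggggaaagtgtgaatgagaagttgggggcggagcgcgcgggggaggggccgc
TTCNNNGAA occurred in 6.07% of the windows of tested genes, the form with 4 bases between in 4.54%, and at least 1 of them in 10.2%. Of the 10 members, 6 matched a window in the table, with 7 windows in all.

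Cish and Socs2, the classical STAT5 products, were called in neither fit. Cish (chromosome 9, 107296026 to 107302784, plus strand) had 321, 383 and 405 CPM in SPC libraries 1 to 3, against 359.7, 363 and 386 CPM in control libraries 1 to 3. The groups overlapped and the means were 369 ± 43.5 CPM with SPC and 369 ± 14.4 CPM in control (SD, n = 3 each). The log2 fold change was 0.00 ± 0.093 with a 95% interval from -0.21 to 0.21 by group alone, and from -0.13 to 0.12 with the block (adjusted p = 0.99958 and 0.967). The sign of this value near 0 turned with the setting. Of its exonic bases 11.5% lie in exons of genes annotated on the other strand, Gm17040 and Gm17041.

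Socs2 (chromosome 10, 95385362 to 95417180, minus strand), which also dampens growth hormone receptor signalling, had 286, 263 and 259 CPM in SPC libraries 1 to 3, against 264, 242 and 227 CPM in control libraries 1 to 3. Each SPC library was above the control library of its number, by a factor of 1.08, 1.09 and 1.14, and the groups overlapped by a small margin. By group alone the log2 fold change was 0.14 ± 0.080 (adjusted p = 0.632), and the block left it at 0.14 ± 0.049 (adjusted p = 0.121). Without both libraries numbered 1 the blocked adjusted p was 0.00142 for Socs2 and 0.0217 for Socs5. That fit rests on few libraries, and its p-values lean on spread shared across genes. Of the 50-base windows of the longest transcript of Socs2, 7.23% also occur in transcripts of the predicted genes Gm9847 and Gm8000.

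Socs4 to Socs7 form the less studied branch with long N-terminal regions, of which Socs4 and Socs5 act on the EGF receptor. None was called in either fit. They lie on chromosomes 14 (Socs4, 47276931 to 47296102), 17 (Socs5, 87107679 to 87137839), 18 (Socs6) and 11 (Socs7, 97362551 to 97398542). Socs4 had 40.1 ± 4.73 CPM with SPC and 41.3 ± 1.39 CPM in control (log2 fold change -0.046 ± 0.096, adjusted p = 0.927). Socs5 had 14.8 ± 1.98 CPM with SPC and 13.1 ± 0.801 CPM in control (0.17 ± 0.12, adjusted p = 0.721), with SPC library 1 below and SPC libraries 2 and 3 above the control library of the same number. Socs6 had 23.6 ± 0.778 CPM with SPC and 25.3 ± 1.98 CPM in control (-0.099 ± 0.089, adjusted p = 0.797). Socs7 had 87.2 ± 7.48 CPM with SPC and 82.0 ± 2.17 CPM in control (0.089 ± 0.080, adjusted p = 0.795). The groups overlapped for each of these 4 genes, and their 95% intervals by group alone lay within -0.30 and 0.45 on the log2 scale. For Socs6, 11.7% of 50-base windows of the longest transcript also occur in predicted genes. Summed over the 8 SOCS genes, the libraries held 918 ± 27.8 CPM with SPC and 928 ± 11.8 CPM in control.

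Pim1, a serine/threonine kinase induced by many cytokines, lies on chromosome 17 (29490753 to 29496112, plus strand). It had 245, 271 and 344 CPM in SPC libraries 1 to 3, against 209.7, 222 and 276 CPM in control libraries 1 to 3. Each SPC library was above the control library of its number, by a factor of 1.17, 1.22 and 1.25, and the groups overlapped because control library 3 was above SPC libraries 1 and 2. The log2 fold change was 0.28 ± 0.14 by group alone (95% interval -0.040 to 0.61, adjusted p = 0.568) and 0.28 ± 0.049 with the block (95% interval 0.17 to 0.39, adjusted p = 0.0066). Leaving out SPC library 3 moved the group-only log2 fold change of Pim1 to 0.13, and leaving out control library 3 moved it to 0.41. The blocked adjusted p was 0.0864 without both libraries numbered 3. An antisense gene, Gm26885, covers part of its exons (14.5% of exonic bases), and their reads cannot be told apart unless strand was used in counting, which is not stated.

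Pim2, which shares many substrates with Pim1 and is the Pim kinase best known for supporting T cell survival when mTOR is inhibited, lies on chromosome X (7878262 to 7883432, plus strand). It had 150.5, 166 and 239 CPM in SPC libraries 1 to 3, against 112, 127 and 221 CPM in control libraries 1 to 3. Again each SPC library was above the control library of its number, by a factor of 1.34, 1.30 and 1.08, and control library 3 was above SPC libraries 1 and 2. The log2 fold change was 0.27 ± 0.26 by group alone (95% interval -0.32 to 0.86, adjusted p = 0.814) and 0.31 ± 0.065 with the block (95% interval 0.16 to 0.45, adjusted p = 0.0177). By group alone the log2 fold change of Pim2 became 0.045 when SPC library 3 was left out and 0.63 when control library 3 was. The blocked adjusted p was 0.0518 without both libraries numbered 2. Of the 50-base windows of its longest transcript 2.15% also occur in Gm7645 or Gm21182.

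Pim3, the third kinase of the family and no member of the set, had 111, 112 and 137 CPM with SPC and 104, 104 and 118 CPM in control. Each SPC library was above the control library of its number, by a factor of 1.06, 1.08 and 1.16. The fitted log2 fold change of 0.14 ± 0.10 had an adjusted p of 0.720, or 0.170 with the block.

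**Figure D3:**
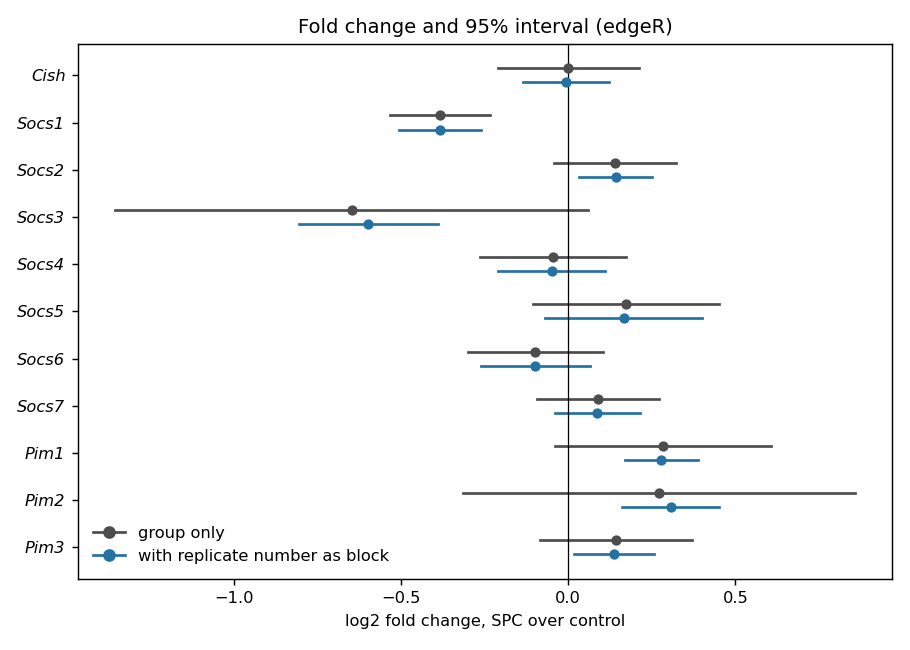
Log2 fold change, SPC over control (x axis), of the 10 members and Pim3 with its 95% interval from edgeR, by group alone (grey) and with the library number as a block (blue). The point estimates of each gene lie close together in both fits, for instance 0.28 and 0.28 for Pim1 and -0.65 and -0.60 for Socs3. The interval of every gene shown is narrower with the block.

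The promoter windows of both kinases that were called with the block held no match to a STAT motif or to the GAAA repeat. They are shown to set their base composition side by side, cut to the bases in no annotated exon, at chr17:29490535-29490752 and chrX:7878056-7878261, both plus strand.
Pim1: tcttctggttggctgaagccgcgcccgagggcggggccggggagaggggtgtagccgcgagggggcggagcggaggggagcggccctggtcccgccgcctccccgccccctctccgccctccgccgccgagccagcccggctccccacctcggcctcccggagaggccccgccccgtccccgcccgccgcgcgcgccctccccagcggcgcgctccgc
Pim2: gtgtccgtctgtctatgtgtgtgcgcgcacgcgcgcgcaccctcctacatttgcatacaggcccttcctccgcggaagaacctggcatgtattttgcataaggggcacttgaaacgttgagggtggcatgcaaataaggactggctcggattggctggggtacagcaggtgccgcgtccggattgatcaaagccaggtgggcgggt
In the full windows G and C made up 82.4% of the bases for Pim1 and 62.0% for Pim2. A second annotated Pim1 window had 48.0% and no match either. In the 3′ untranslated regions, the pentamer ATTTA, the core of elements that shorten the life of an mRNA, occurred 3.65 times per kb for Pim1, 2.18 for Pim2, 2.71 for Socs3 and 1.33 for Cish, against a median of 1.34 per kb over 10938 tested genes. The 3′ untranslated region of Socs1 had none in 1996 bases. Members called in neither fit also had it, at 3.28 per kb for Socs4, 2.49 for Socs6 and 1.72 for Socs2. Socs5 had 1.54 and Socs7 0.964 per kb, and Pim3, also called in neither fit, had 5.17.

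The gene lists that follow were chosen with earlier results of these data known. Beside their counts, 0.327% of all tested genes were called higher and 0.155% lower by group alone. With the block these shares were 4.02% and 3.07%. Upstream of the members, none of 4 JAK genes was called in either fit, with log2 fold changes between -0.11 and 0.14. Of 7 STAT genes none was called by group alone, and with the block 1 rose and 2 fell. Stat5a, which encodes a STAT5 factor of IL-2 signalling, had 549.6 ± 57.8 CPM with SPC and 451 ± 17.9 CPM in control (log2 fold change 0.29 ± 0.086, adjusted p = 0.244, with the block 0.00849). Stat4, which carries IL-12 signals, had 18.0 ± 3.07 CPM with SPC and 27.9 ± 1.94 CPM in control (-0.64 ± 0.13, adjusted p = 0.0821, with the block 0.00155). Stat3, which carries IL-6 and IL-21 signals, had 309 ± 54.1 CPM with SPC and 359 ± 59.7 CPM in control (-0.22 ± 0.15, adjusted p = 0.703, with the block 0.0188). Stat6, the IL-4 factor, had 264 ± 6.85 CPM with SPC and 259.6 ± 7.93 CPM in control (0.027 ± 0.064, adjusted p = 0.941), and Stat6 was called in neither fit.

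Of 21 tested cytokine receptor chains, 1 fell by group alone, and with the block 1 rose and 6 fell (median log2 fold change -0.16). Csf2rb, the common beta chain of the IL-3, IL-5 and GM-CSF receptors, fell to 1.89 ± 0.369 CPM with SPC, against 7.08 ± 1.58 CPM in control (-1.91 ± 0.22, adjusted p = 0.0164). With the block Il12rb2, a chain of the IL-12 receptor, fell (6.83 ± 2.88 CPM with SPC and 17.7 ± 8.15 CPM in control, adjusted p = 2.1e-05). So did Il7r, the IL-7 receptor (11.9 ± 1.98 CPM with SPC and 19.0 ± 2.73 CPM in control, adjusted p = 0.00088), and Il9r, the receptor of IL-9 (2.99 ± 0.381 CPM with SPC and 4.76 ± 0.931 CPM in control, adjusted p = 0.0187). Il2ra, the high-affinity IL-2 receptor chain, also fell with the block (2417 ± 360.0 CPM with SPC and 2829 ± 131 CPM in control, adjusted p = 0.0344). Il6ra, the IL-6 receptor, rose with the block (64.9 ± 5.92 CPM with SPC and 54.8 ± 7.19 CPM in control, adjusted p = 0.0362). By group alone these 5 had adjusted p between 0.104 and 0.531.

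Of 14 tested ligand genes 1 rose by group alone, and with the block 2 rose and 2 fell. Il9, the cytokine of these cells, rose to 1138 ± 239 CPM with SPC, against 539 ± 18.8 CPM in control (log2 fold change 1.08 ± 0.13, adjusted p = 0.0189). Lif, a cytokine that signals through gp130, had 151.7 ± 33.7 CPM with SPC and 255 ± 67.4 CPM in control (log2 fold change -0.75 ± 0.20, adjusted p = 0.192, with the block 2.1e-05). Il13 rose and Il10 fell with the block (adjusted p = 0.00056 and 0.00389, and by group alone 0.0530 and 0.0514).

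Other inhibitors of the pathway (15 tested genes) held no called gene by group alone, and with the block 1 rose and 2 fell. Dusp2, a dual-specificity phosphatase, had 139 ± 9.20 CPM with SPC and 107 ± 11.9 CPM in control (0.38 ± 0.096, adjusted p = 0.160, with the block 0.00176). Dusp3, a related phosphatase, had 5.75 ± 1.35 CPM with SPC and 8.47 ± 1.52 CPM in control (-0.56 ± 0.20, adjusted p = 0.344, with the block 0.0110). Ptprc, which encodes CD45, had 875 ± 86.5 CPM with SPC and 1012 ± 32.1 CPM in control (-0.21 ± 0.083, adjusted p = 0.420, with the block 0.0341).

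Of 12 listed elongin and cullin partners through which the SOCS box works, 9 symbols were in the count files, and the others could not be examined. All 9 were tested and none was called in either fit, with log2 fold changes between -0.16 and 0.14. Of 14 tested genes of other SOCS box proteins 1 fell with the block and none by group alone. This was Asb2, an ankyrin repeat protein, with 1.32 ± 0.540 CPM with SPC and 6.30 ± 2.93 CPM in control (-2.24 ± 0.39, adjusted p = 0.0527, with the block 0.00014).

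Target genes were listed by the STAT best known to drive them, and some stand in more than 1 list. Of 16 tested STAT5 targets, 1 rose and 1 fell by group alone (0.327% and 0.155% of all tested genes). With the block 1 rose and 8 fell (4.02% and 3.07% of all tested genes). The median log2 fold change by group alone was -0.18. Since the list was chosen with earlier results known, its counts describe these genes and carry no test. Bcl2l1, which encodes the survival protein Bcl-xL, rose to 438 ± 48.7 CPM with SPC, against 291 ± 20.3 CPM in control (0.59 ± 0.094, adjusted p = 0.0434), while Gzmb, which encodes the protease granzyme B, fell to 1.96 ± 0.452 CPM with SPC, against 10.2 ± 3.90 CPM in control (-2.39 ± 0.31, adjusted p = 0.0213). With the block the fallen targets included Nfil3, a basic leucine zipper factor (42.8 ± 9.06 CPM with SPC and 79.5 ± 18.7 CPM in control, adjusted p = 2.1e-05), Ctla4, a co-inhibitory receptor (186 ± 70.2 CPM with SPC and 432 ± 166 CPM in control, adjusted p = 5.0e-07), and Ccnd3, which encodes cyclin D3 (189 ± 10.6 CPM with SPC and 218 ± 4.50 CPM in control, adjusted p = 0.0407). By group alone these 3 had adjusted p of 0.0881, 0.168 and 0.329.

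Of 11 tested STAT6 targets 1 fell by group alone, and with the block 3 rose and 3 fell. The one called by group alone was Ccr8, a chemokine receptor, with 97.1 ± 7.03 CPM with SPC and 137.5 ± 4.93 CPM in control (-0.50 ± 0.076, adjusted p = 0.0373). Of 12 tested STAT3 targets 1 rose by group alone, and with the block 4 rose and 2 fell. With the block Bcl6, a repressor, had 6.87 ± 1.01 CPM with SPC and 3.92 ± 1.14 CPM in control (0.80 ± 0.22 by group alone, adjusted p = 0.202, with the block 0.00653), and Hif1a, a hypoxia factor, 224 ± 53.1 CPM with SPC and 311 ± 69.8 CPM in control (-0.48 ± 0.20, adjusted p = 0.438, with the block 0.00056).

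Of 14 tested genes whose proteins Pim kinases phosphorylate, none was called by group alone, and with the block 2 rose and 1 fell. The cell cycle inhibitor genes Cdkn1b and Cdkn1a were those that rose. Cdkn1b had 60.2 ± 14.7 CPM with SPC and 47.2 ± 8.22 CPM in control (0.35 ± 0.18, adjusted p = 0.592, with the block 0.0285), and Cdkn1a had 223 ± 29.1 CPM with SPC and 188 ± 44.2 CPM in control (0.25 ± 0.16, adjusted p = 0.690, with the block 0.0262). Cxcr4, a chemokine receptor gene, fell with the block (11.2 ± 5.21 CPM with SPC and 15.3 ± 6.88 CPM in control, adjusted p = 0.769 by group alone and 0.0102 with the block).

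**Figure D4:**
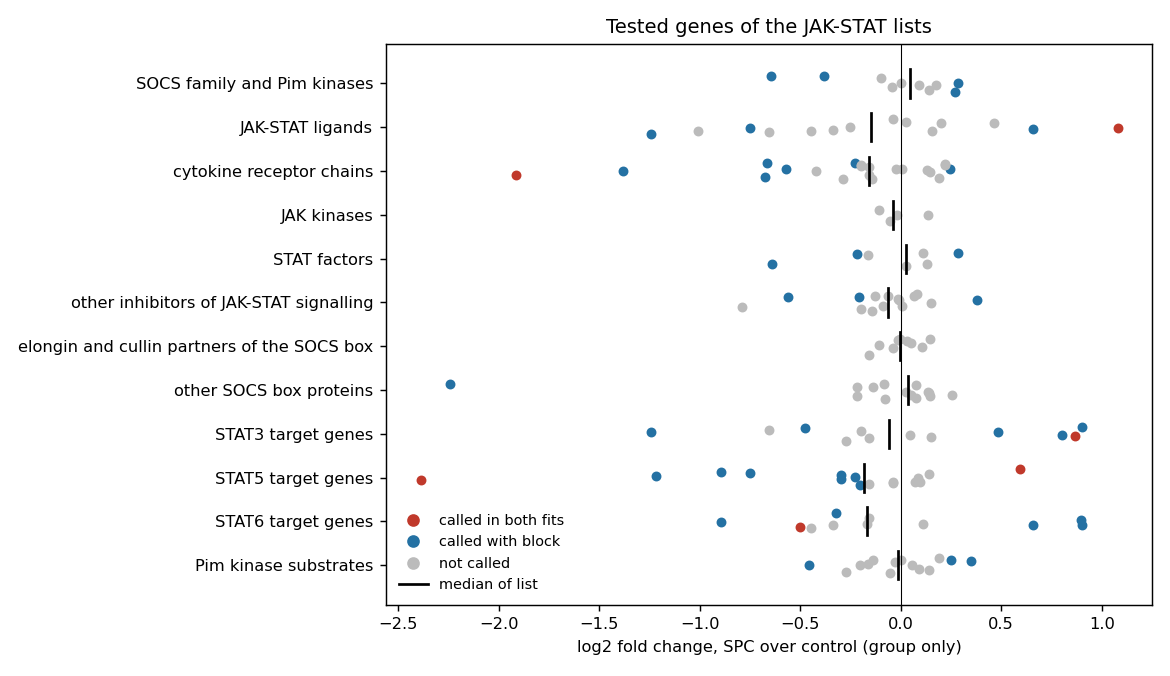
Log2 fold change, SPC over control by group alone (x axis), of each tested gene in the pathway lists (rows), coloured by whether it was called in both fits, with the block or in neither, with a black bar at each list's median. The medians lie between -0.18 for STAT5 targets and 0.045 for the SOCS family and Pim kinases, and single genes spread from -2.39 for Gzmb to 1.08 for Il9.

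The genes whose profile over the 6 libraries was most like that of Socs1, among 9149 other genes of at least 5 CPM, were Itgb3, an integrin chain (Pearson correlation of log2 CPM 0.994), Ccr8, a chemokine receptor (0.985), Dhrs11 (0.983), Tg, thyroglobulin (0.980), and Slc25a12, a mitochondrial carrier (0.979). Itgb3, Ccr8, Tg and Slc25a12 were each lower with SPC at an adjusted p under 0.05 by group alone, and Dhrs11 was called in neither fit (adjusted p = 0.553 and, with the block, 0.252). For Socs3, the member with the second smallest p, they included Neat1, a nuclear long noncoding RNA (0.999), Leng8 (0.998), Zfp629 (0.997) and Gbe1, the glycogen branching enzyme (0.994). None of these 4 was called by group alone, and Neat1 and Gbe1 were lower with the block (adjusted p = 0.00552 and 0.00523). The 6 points of each comparison share library and depth, and the genes named are among the highest of many searched, so the values describe these libraries and carry no test.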

How the data were processed

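The authors deposited raw counts for each gene symbol in 6 libraries. TopHat and mm10 are named in the submitters' processing notes. The kit marks strand and used 1.3 µg of total RNA, per the labels' protocols. No source used here names the counting program, its annotation or its strand setting. The main test was that of edgeR 4.0.16, run in R 4.3.3 (quasi-likelihood F test, robust estimates, TMM scaling, filterByExpr with minimum count 10 and minimum total 15), with group as the single term and Benjamini-Hochberg adjustment over all tested genes. Standard errors follow from the log2 fold change and its F value. The main alternative adds the library number as a block. The series text describes 3 independent experiments, and deviations of same-numbered libraries from their group means correlated at 0.413, 0.208 and 0.508 across genes, all above 0.1, so the numbers were taken to pair the libraries. No pair of libraries agreed within counting noise (chi-square per degree of freedom at least 4.82). Whether the libraries came from separate mice is not stated, so p-values measure the spread between these libraries. The smallest exact two-sided permutation p for 3 against 3 libraries is 0.1, and no such test was run. DESeq2 1.42.0 and limma 3.58.1 served as alternatives.

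The members and lists were chosen with earlier results of these data known. Named genes are the 10 members, Pim3, Il9, up to 6 genes per pathway list called in either fit (by smallest group-only p), and the 5 genes most like each of the 2 members with the smallest p. Lengths and coordinates are from GENCODE M21, and sequences from RefSeq. Some results that the rule names are not reported here. The test was checked on simulated data.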

Additional observations from a re-analysis of the deposited data

How the results depend on the processing

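Of the 10 members none was called by group alone in the main edgeR test. The replicate block called 4 members and 866 genes, the block with DESeq2 size factors 4 and 869, the block in the DESeq2 Wald test 4 and 638, and the block in limma-voom 4 and 804, the last 3 settings being chosen after the data were seen. With the block and without both libraries of a number it called 6 members and 2112 genes without number 1, 3 and 699 without number 2, and 3 and 563 without number 3. Fits of so few libraries lean on spread shared across genes, so their calls are no measure of robustness. By group alone the DESeq2 Wald test called 1 member and 279 genes, no filter on low counts 1 and 147, and limma-voom 0 and 38, against 59 genes in the edgeR test. Leaving out libraries by group alone gave 0 or 1 member and 0 to 66 genes. The count of 0 genes came from edgeR when both libraries of number 2 were left out, and 502 genes then had an unadjusted p under 0.05. The sign of Cish was reversed with the block (-0.0060), with DESeq2 size factors (-0.00068), in the DESeq2 Wald test (-0.0016), in limma-voom (-0.0069), and with the block under these 3 settings (-0.0065, -0.0074 and -0.0067). It lay between -0.071 and 0.092 without libraries and with the block at 0.074, -0.037 and -0.043 without numbers 1, 2 and 3. Socs4 lay between -0.14 and 0.023 without libraries, and with the block between -0.11 and 0.00083. The cause was not tested. Directions of the other 8 members held in all 21 alternatives. The lowest count of a member in a library was 269, for Socs5.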
